A study of Glycine max with 6 samples.

Results

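Sucrose synthase (SS), a beta-amylase (LOC547931) and galactinol synthase (GOLS) are enzymes of leaf sugar and starch metabolism, measured here in the paraveinal mesophyll (PVM) and the palisade parenchyma (PP) of soybean. Every probe set whose single gene symbol in the platform annotation is SS, LOC547931 or GOLS was taken, which gave 3 of the 6029 genes that the annotation names for single-symbol soybean probe sets, and 5 of the 61170 probe sets of the array: 3 for SS, 1 for LOC547931 and 1 for GOLS. The 3 genes had been singled out from earlier results on these same arrays, SS and LOC547931 as higher in PVM and GOLS as lower in PVM. Their differences between layers are therefore described and not tested.

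The study hybridised RNA of laser-microdissected cells to 6 one-colour arrays, 3 of PVM cells and 3 of PP cells, all from mature leaves of untreated plants raised in growth chambers under 16-hour days. Both groups shared the same handling, with fixation in acidified ethanol, paraffin sections, pooling of the cells of each sample and amplification of the RNA before labelling. The submitters call the replicates of each layer biological. The cultivar, the plant age, the hour of harvest and whether a PVM and a PP sample shared a plant are unknown here, and p-values measure only the spread between these samples. One label of the PP samples, their description, speaks of paraveinal cells, but the rest of their labels speak of palisade cells and were followed.

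PVM is a layer of cells that stretches between the veins of soybean leaves, below the palisade, and is known for vacuoles that hold vegetative storage proteins. Sucrose synthase splits sucrose reversibly into fructose and UDP-glucose, and in many plants it is found where sucrose is drawn into a tissue or loaded into the phloem. Beta-amylases release maltose from the ends of starch chains. Galactinol synthase joins UDP-galactose to myo-inositol and so opens the pathway to raffinose and stachyose, sugars that plants store, transport or build up under stress.

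Marker lists were set beside the labels, with some markers chosen with these data in view. Intensities summed over the 24 probe sets of VSPA, VSPB (LOC547820), LOXB1, LOX7 and LOX9, storage protein and lipoxygenase genes of PVM, ran from 96495 to 108390 in PVM and from 42257 to 63721 in PP. All 23 tested probe sets of that list had positive log2 differences, PVM minus PP, from 0.64 to 2.68. By limma 0 passed an adjusted p of 0.05 (smallest 0.0897), while 20 had an unadjusted p under 0.05. Of all tested probe sets 12.2% had such an unadjusted p, and probe sets of the same 5 genes are not replicates. Over 13 probe sets for antenna proteins and Rubisco activases, the sums were 66921 to 94012 in PVM and 108409 to 121994 in PP. These sums rest on a few bright probe sets, and after normalization the differences of this list were 8 negative and 4 positive, from -0.68 to 0.57, with 0 at an adjusted or unadjusted p under 0.05 (smallest adjusted p = 0.429 by limma). A probe set counted as above background where it exceeded the 95th percentile of that array's probe sets for organisms other than soybean, an intensity of 11.0 to 15.5 in PVM and 17.2 to 20.7 in PP. A soybean probe set was tested where 3 or more arrays exceeded their background. The arrays PP 1 and PP 2 resembled each other more than any other pair (Pearson r = 0.947 over 25314 tested probe sets, against 0.811 to 0.885 for the others). The PVM arrays were no closer to each other (0.847 to 0.870) than to PP arrays 1 and 2 (0.847 to 0.878). With PP array 3 they correlated at 0.811 to 0.841.

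SS was detected in all 3 PVM samples and in none of the PP samples on the probe set whose name begins with Gma, here the Gma probe set. Its deposited intensity was 117, 38.0 and 72.9 on PVM arrays 1, 2 and 3, against 4.45, 13.6 and 12.6 on PP arrays 1, 2 and 3. The layers did not overlap, and all 3 PP values lay below the background of their array. That background was higher on the PP arrays (17.2 to 20.7) than on the PVM arrays (11.0 to 15.5). The values of PP arrays 2 and 3 were above the background of PVM array 2. The mean level was at least 2.53-fold higher in PVM, a lower bound that sets the PVM mean against the PP background on the normalized log2 scale. PVM arrays 2 and 3 lay below that mean, so the bound does not hold for each PVM array. The fitted log2 difference, PVM minus PP, was 1.79 with a standard error (SE) of 0.38.

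A second design on the array for SS gave another picture, in which 1 PVM sample carried the signal. SS has a pair of further probe sets whose names begin with GmaAffx, one ending in _s_at and the other in _at. On the GmaAffx _s_at probe set the intensity was 785, 13.9 and 13.5 on PVM arrays 1, 2 and 3, against 18.4, 5.11 and 0.426 on PP arrays 1, 2 and 3. The deposited values of PVM arrays 2 and 3 lay within the range of the PP arrays, so the layers overlapped. Of the 5 values other than that of PVM array 1, those of PVM array 2 and PP array 1 were above background. The log2 difference was 2.10 (SE 1.19), and without PVM array 1 it was 0.56.

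The GmaAffx _at probe set, drawn from the same cluster of sequences by its name, showed the same single high array. It measured 316, 0.724 and 0.498 on PVM arrays 1, 2 and 3, against 9.76, 0.893 and 8.27 on PP arrays 1, 2 and 3. PVM array 1 was the sole array above background, so this probe set did not enter the fit. Without PVM array 1 all 5 remaining values lay below background, so no difference can be given there. The suffix _s_at marks a probe set whose probes can match more than 1 transcript, and which sucrose synthase copies each of the 3 measures was not tested. Neither the Gma nor the GmaAffx _at probe set carries that mark, so the mark does not set the patterns apart. The difference of the Gma probe set without PVM array 1 was 1.49.

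PVM array 1 was the highest of the 6 arrays on all 3 SS probe sets. On the GmaAffx _s_at probe set it exceeded the next highest array by 4.44 on the log2 scale, the largest excess of that array among all 25314 tested probe sets. Only 8 tested probe sets stood 3 or more log2 units above every other array on PVM array 1, against 14 on PVM array 2, 2 on PVM array 3, 15 on PP array 3 and 0 on PP arrays 1 and 2. Large excursions of 1 array were thus rare, and they were not limited to this sample.

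Markers of phloem were set beside SS because sucrose synthase is known from that tissue. The list held 14 probe sets, 3 for the sucrose transporter SUT1 and 11 for sieve element occlusion (SEO) genes, whose proteins plug sieve tubes. Their summed intensity ran from 734 to 1235 on the PVM arrays, highest on PVM array 1, and from 430 to 644 on the PP arrays. The peak on PVM array 1 rests on SUT1 probe sets at 617, 469 and 199 and at 334, 131 and 30.5 on PVM arrays 1, 2 and 3. The third SUT1 probe set was lowest on PVM array 1, and SEOC, the brightest SEO probe set in PVM, was highest on PVM array 3. After normalization, the 4 tested probe sets had 2 positive and 2 negative log2 differences, from -0.83 (SEOE) to 0.69 (SUT1). None had an adjusted or unadjusted p under 0.05 (smallest adjusted p = 0.572 by limma). Of the 14 probe sets, 6 were above background on no array and 3 on every array. SEOC measured 209, 8.16 and 338 on PVM arrays 1, 2 and 3, against 2.0, 6.67 and 11.9 on PP arrays 1, 2 and 3. It was above background in 2 PVM samples and in no PP sample, and so did not enter the fit. The highest value of any other SEO probe set was 130, on PP array 3 for SEOE. The part of phloem cells in the SS signal was not tested.

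LOC547931, the beta-amylase with the synonym BMY1, was bright in both layers and higher in PVM. Its intensity was 3070, 3336 and 3420 on PVM arrays 1, 2 and 3, against 1564, 1039 and 2128 on PP arrays 1, 2 and 3. Every PVM value was above every PP value. The PVM samples lay close together and the PP samples were spread, at 3275 ± 183 in PVM and 1577 ± 545 in PP (SD, n = 3 each). The log2 difference was 1.25 (SE 0.35), a 2.37-fold higher level in PVM after normalization. In pooled cells, a larger share of expressing cells and more RNA per cell cannot be told apart.

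Within PP, LOC547931 followed the order of the summed PVM markers, though not of every marker probe set. Some LOX9 probe sets were lowest on PP array 3. PP array 3 was highest and PP array 2 lowest both for LOC547931 and for the summed PVM markers, which were 47812, 42257 and 63721 on PP arrays 1, 2 and 3. The part of PVM cells in the PP values of LOC547931 was not tested. Without PP array 3 its difference was 1.46, and without PP array 2 it was 1.00.

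GOLS was close to background in PVM and clear of it in PP. It measured 7.50, 17.9 and 16.5 on PVM arrays 1, 2 and 3, against 76.9, 65.4 and 74.7 on PP arrays 1, 2 and 3. The layers did not overlap, and the closest PVM and PP arrays differed by -0.93, PVM minus PP, on the normalized log2 scale. GOLS averaged 14.0 ± 5.63 in PVM and 72.3 ± 6.13 in PP (SD, n = 3 each). The value of PVM array 1 lay below background. The log2 difference was -1.52 (SE 0.34), which is 2.86-fold lower in PVM on the scale of log2(intensity + 16). The deposited PVM mean was 0.193 of the PP mean, a ratio that rests on PVM values near background.

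**Figure D1:**
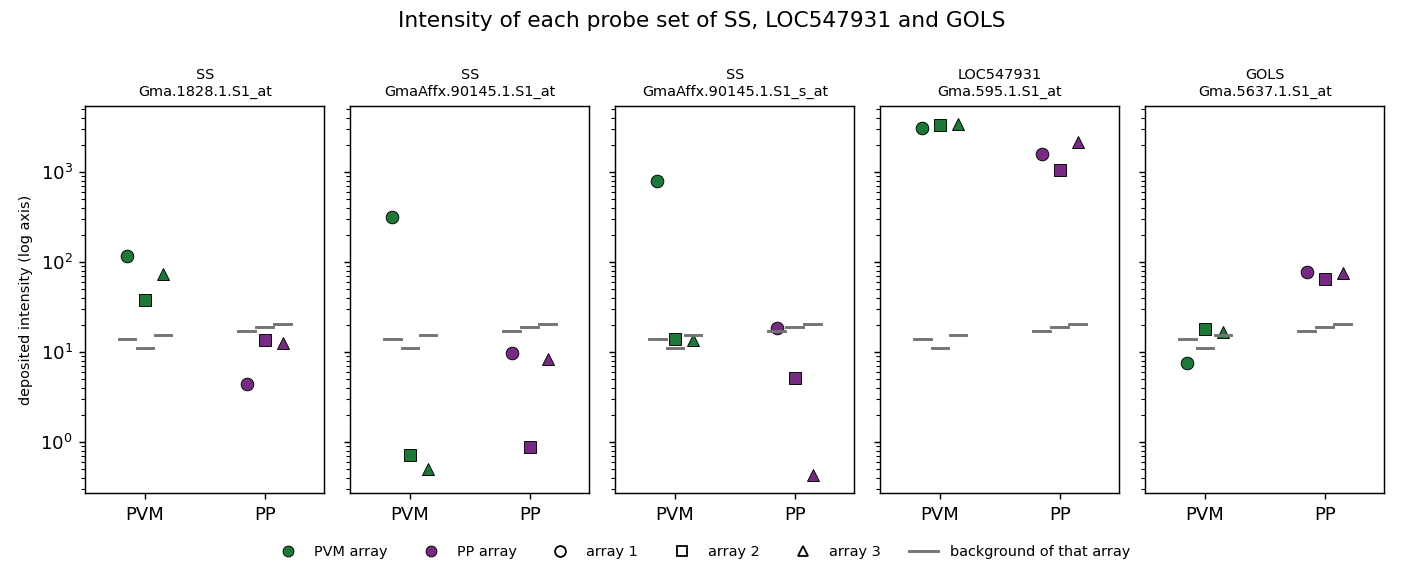
Deposited intensity (log axis) of the 5 probe sets on each PVM array (left in each panel) and each PP array (right), with a grey tick at the background of that array. PVM and PP values are apart for the Gma probe set of SS, for LOC547931 and for GOLS, while both GmaAffx probe sets of SS are high on PVM array 1 alone (785 and 316).

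In the fit across all 25314 tested probe sets, 11 passed an adjusted p of 0.05 by limma, all higher in PVM, which is 0.0435% of those tested. Of the 4 member probe sets in that fit, 0 passed and 3 had an unadjusted p under 0.05, as had 12.2% of all tested probe sets. With an intensity trend and a robust prior in limma, 1 of the 4 passed, LOC547931 (adjusted p = 0.0402), in a setting where 0.589% of all tested probe sets passed. The layers did not overlap for 2 member probe sets in favour of PVM, as for 8.62% of all tested probe sets, and for 1 in favour of PP, as for 10.1%. Since the genes were chosen on this contrast, nothing is read from these counts. Over all tested probe sets the median log2 difference was -0.06, and the middle 50% of differences lay between -0.46 and 0.39.

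Other genes of sugar and starch metabolism came from a list of symbols, and 18 genes with 31 probe sets could be matched. Of these, 21 probe sets of 11 genes were tested. By limma the count with an adjusted p under 0.05 was 0 for higher and 0 for lower in PVM, and the smallest adjusted p was 0.160. At an unadjusted p under 0.05, 0 were higher and 2 lower in PVM, beside 6.53% and 5.63% of all tested probe sets. Differences were positive for 8 and negative for 13 of the 21, with a median of -0.26, beside 46.3% positive and 53.7% negative over all tested probe sets.

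The other beta-amylases did not share the direction of LOC547931. All 6 tested probe sets of LOC547684, which carries the synonym BMY1 as well, and of BMY2 had negative differences, with a median of -0.67. None passed the test. LOC547684 was 12.1, 3.40 and 18.5 on PVM arrays 1, 2 and 3, against 58.3, 64.2 and 75.6 on PP arrays 1, 2 and 3, on its GmaAffx _at probe set. The layers did not overlap there, and PVM arrays 1 and 2 were below background. That difference was -1.61 (SE 0.34, adjusted p = 0.160 by limma). The other probe sets of LOC547684 overlapped between layers, at -0.92 and -0.74, and the second of these ran from -1.34 without PVM array 2 to -0.23 without PVM array 1.

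BMY2 did not pass the test on any probe set. Its brightest probe set, the one beginning with Gma, measured 2848, 2513 and 2312 on PVM arrays 1, 2 and 3, against 2926, 3280 and 3310 on PP arrays 1, 2 and 3. The deposited values did not overlap, and after quantile normalization they did, with a log2 difference of -0.12 (SE 0.30). Its remaining probe sets differed by -0.61 and -0.27, with overlapping arrays. The probe set at -0.61 ran from -1.48 without PVM array 3 to -0.05 without PVM array 1. The probe set at -0.27 turned to 0.02 without PVM array 1, so that 5 of the 6 probe sets were negative. Whether LOC547931 differs from these genes in its contrast was not tested, since LOC547931 was chosen for its difference.

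**Figure D2:**
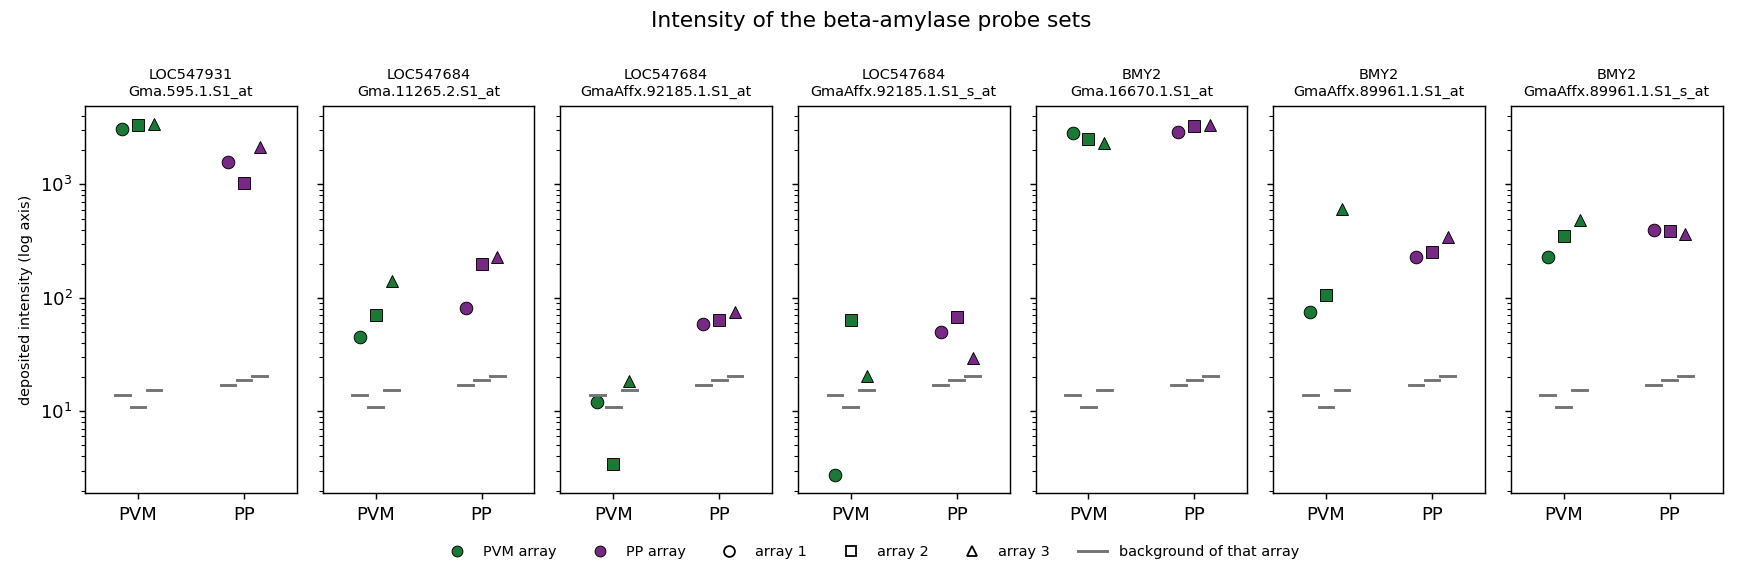
Deposited intensity (log axis) of the 7 beta-amylase probe sets on each PVM array (left in each panel) and each PP array (right), with a grey tick at the background of that array. LOC547931 is higher on every PVM array, the GmaAffx _at probe set of LOC547684 is lower on every PVM array, and BMY2 overlaps on the GmaAffx probe sets.

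Around GOLS, the genes that supply inositol did not pass the test. MIPS and MIPS4 encode myo-inositol-phosphate synthase, which makes the precursor of the inositol that galactinol synthase uses. All 3 of their probe sets had positive differences, from 0.47 to 0.59, with smallest adjusted p = 0.610 by limma. Leaving out 1 array gave 0.26 to 0.94, and whether they differ from GOLS was not tested. MIPS measured 725, 449 and 428 on PVM arrays 1, 2 and 3, against 391, 336 and 291 on PP arrays 1, 2 and 3 on its _at probe set. The layers did not overlap on it, and they overlapped on the remaining pair. No probe set of a raffinose or stachyose synthase could be matched by symbol.

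Sugar transporters were mixed. SUT1 had differences of 0.37, -0.40 and 0.69 on its 3 probe sets, all with overlapping layers. The sign of the first 2 depended on 1 array, with -0.33 and 0.20 without PVM array 1, while the first was 1.19 without PVM array 3 and the second 0.36 without PP array 3. SWEET31, of a family of sugar exporters, measured 370, 240 and 454 on PVM arrays 1, 2 and 3, against 764, 734 and 1083 on PP arrays 1, 2 and 3, with a difference of -1.30 (SE 0.36, adjusted p = 0.246 by limma). A second SWEET31 probe set, close to background, was at -0.01. SWEET34 was at -0.60 and SWEET42 at 0.11. STP, at -0.26, turned to 0.54 without PP array 1 and was -1.16 without PP array 3. STP1 was at 1.28 and 0.33, with overlapping layers, and the larger value ran from 0.73 without PVM array 3 to 2.03 without PP array 2. In all, 8 of the 21 tested probe sets of the list changed sign when some array was left out, among them 1 each of STP1, SWEET31 and SWEET42.

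Other members of the list were mostly at or near background. None of the 3 probe sets of GBSSIa, a granule-bound starch synthase, was above background on any array. CWINV, a cell wall invertase, which splits sucrose outside the cell, was above background on PP array 3 alone, at 26.6. PGM was above background on all 6 arrays on its Gma probe set, at 291, 465 and 131 on PVM arrays 1, 2 and 3, against 291, 352 and 327 on PP arrays 1, 2 and 3. Its differences were -0.43 there and -0.57 on the other probe set, with layers that overlapped after normalization, and the first turned to 0.06 without PVM array 3. Probe sets below background have only a bound here, so no order of these genes between layers follows.

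**Figure D3:**
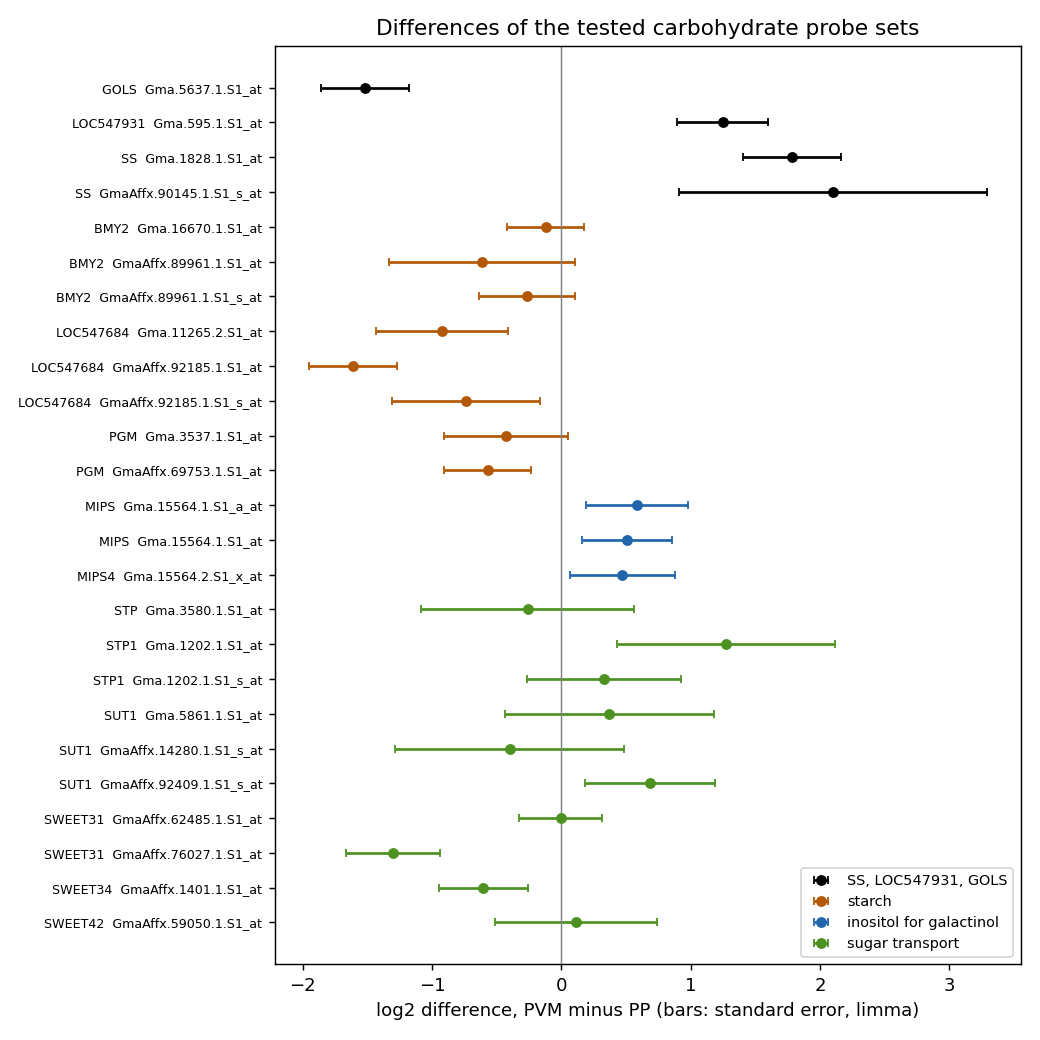
Log2 difference, PVM minus PP, with its standard error from limma, for the 4 tested probe sets of SS, LOC547931 and GOLS and the 21 tested probe sets of the list. The differences of SS (1.79, 2.10), LOC547931 (1.25) and GOLS (-1.52) are shown beside 8 positive and 13 negative ones, and none of the 25 passed an adjusted p of 0.05.

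To show which named genes had the array pattern closest to each member, Pearson correlations over the 6 arrays were ranked among 692 tested genes whose symbol is not a bare LOC number. These are descriptions, since the 6 points share 2 layers and any gene with a large difference between layers correlates. LOC547931 was closest to VLXC, a vegetative lipoxygenase (r = 0.999), CYP93E1, a cytochrome P450 of soyasaponin synthesis (r = 0.990), and EN2 (r = 0.986). VLXC measured 4912, 4927 and 5698 on PVM arrays 1, 2 and 3, against 1785, 1024 and 2998 on PP arrays 1, 2 and 3. As for LOC547931, PP array 3 was the highest and PP array 2 the lowest of the PP samples in VLXC, CYP93E1 and EN2.

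GOLS was closest to LHY, a clock gene that peaks in the morning (r = 0.990), the ethylene receptor EIN4 (r = 0.974) and the ferritin SFERH-3 (r = 0.960). LHY measured 76.4, 157 and 88.3 on PVM arrays 1, 2 and 3, against 362, 307 and 478 on PP arrays 1, 2 and 3. Both were lower on every PVM array than on any PP array, and the order of GOLS within PVM is not read, since its values there lie at or near background. Log2 differences were -1.85 for LHY, -1.98 for EIN4 and -0.55 for SFERH-3, so that genes with unlike sizes of difference were ranked together.

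SS on its Gma probe set was closest to NOD33 (r = 0.972), ADF1 (r = 0.954) and PSK3 (r = 0.953). NOD33 measured 702, 358 and 293 on PVM arrays 1, 2 and 3, against 93.0, 91.8 and 122 on PP arrays 1, 2 and 3. PSK3 measured 299, 38.0 and 49.1 on PVM arrays 1, 2 and 3 and reached no more than background in any PP sample. Its PVM mean lay 3.05-fold above the PP background on the normalized log2 scale, a mean that PVM array 1 raised. The likeness of ADF1 depended on normalization, since its deposited means were 8167 in PVM and 8976 in PP while its normalized difference was 0.28. For the GmaAffx _s_at probe set of SS, looked up after its values were seen, the closest genes were MIPS (r = 0.966), the brassinosteroid signalling kinase BIN2 (r = 0.962) and CAT1 (r = 0.937). All 3 were highest on PVM array 1, with excesses far smaller than that of SS.

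**Figure D4:**
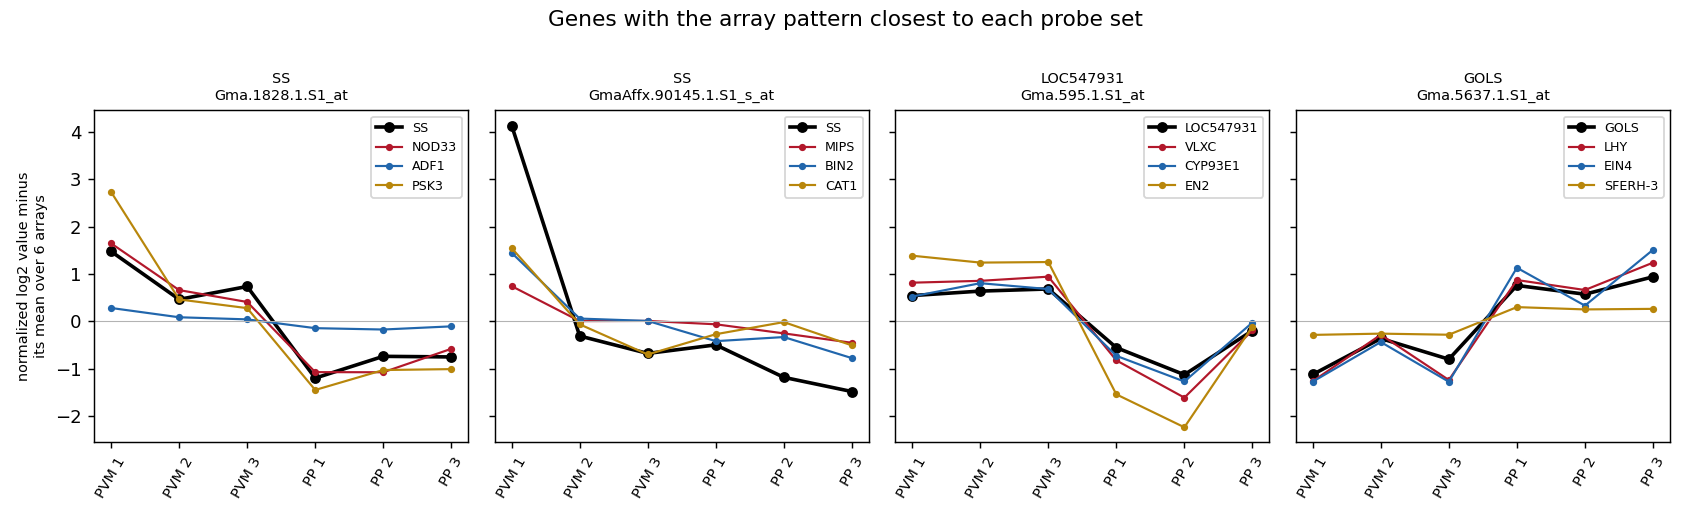
Normalized log2 value minus its mean over the 6 arrays, for each tested member probe set (black) and the 3 named genes with the highest Pearson correlation to it (colours), on PVM arrays 1 to 3 and PP arrays 1 to 3, where lines only join the points of a gene. LOC547931 and its 3 closest genes dip on PP array 2, GOLS and LHY are lower on every PVM array, and the GmaAffx _s_at probe set of SS rises above its closest genes on PVM array 1.

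The size of the SS and GOLS differences depended on the pseudocount, since both genes were near background in 1 layer, whereas the difference of LOC547931 did not. With a pseudocount of 1, the Gma probe set of SS differed by 2.94 and GOLS by -2.25, and with 64 they differed by 0.88 and -0.79. LOC547931 ran from 1.00 to 1.46 over all 17 settings. The directions of these 3 probe sets held in every setting tried. Their layers did not overlap, so leaving out or averaging arrays could not turn a direction, and this is no measure of stability.

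**Figure D5:**
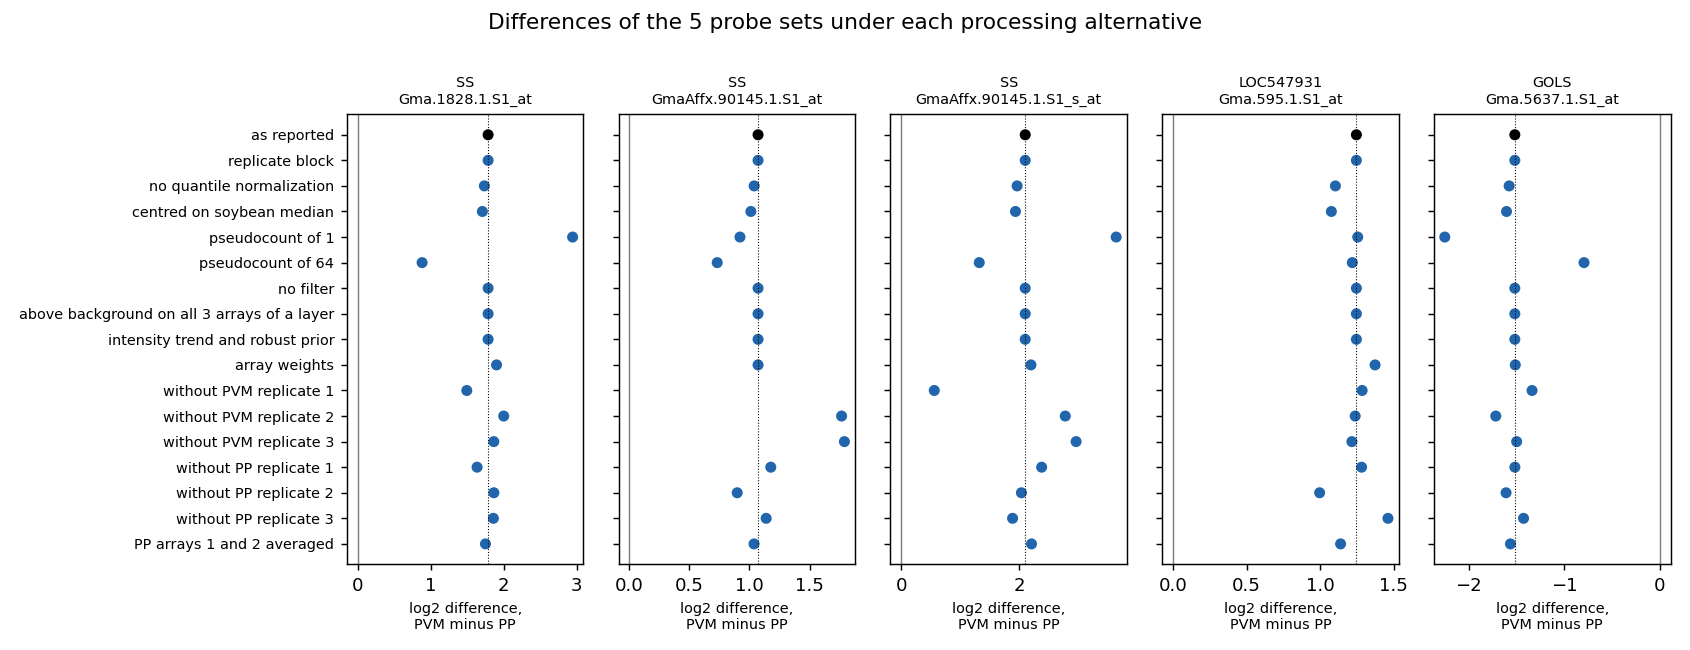
Log2 difference, PVM minus PP, of the 5 probe sets (panels, each with its own horizontal axis) as reported (black) and under 16 processing alternatives (blue), 15 for the GmaAffx _at probe set of SS, whose points set PVM array 1 against values below background. LOC547931 stays between 1.00 and 1.46, the Gma probe set of SS and GOLS move with the pseudocount, and the GmaAffx probe sets change with PVM array 1: the _s_at one drops to 0.56 without it, and the _at one then has no value, since no array left is above background.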

How the data were processed

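Values of 6 Affymetrix arrays were deposited as linear intensities, 1 per probe set, after one-cycle labelling per the labels' protocols. Program, summarisation method and scaling were not stated in the sources used here. On each array the 2% trimmed mean was 125, so the authors appear to have scaled the arrays. Here log2(intensity + 16) was quantile-normalized over 61170 probe sets. Of 37593 soybean probe sets, 25314 lay above background (95th percentile of 23350 probe sets for other organisms) on at least 3 arrays and were tested. PVM was compared with PP by limma 3.58.1 in R 4.3.3 (lmFit, eBayes, 2-sided, no covariates, Benjamini-Hochberg adjustment). The procedure was tested on simulated data. The simulated log2 differences were larger than those of LOC547931, GOLS and the Gma probe set of SS, so that test does not cover them. The number of arrays limits the precision.

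Members and lists were chosen with earlier results of these data known. Symbols came from the platform annotation, updated through RefSeq's table for Glycine_max_v4.0 (8652 of 9047 annotated probe sets matched). Among tested probe sets 6675 had 1 symbol, 318 several and 18321 none. No coordinates or sequences are printed, as the values come with no genome build. Named were all members, all 11 tested genes of the carbohydrate list (the rule allowed 12), and the 3 closest genes to the brightest probe set of each member, by mean normalized log2 value (5.511 for the Gma and 5.509 for the GmaAffx _s_at probe set of SS). LOC100812666, NES and RSP13 shared only letters with the list's symbols and were left out after their values were seen. Epidermis, guard cell and xylem markers gave no match that could be used.

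Alternatives were a replicate block, 2 other scalings, pseudocounts of 1 and 64, other filters, an intensity trend, array weights and each array left out. Averaging PP arrays 1 and 2 was added after the data were seen.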

Additional observations from a re-analysis of the deposited data

How the results depend on the processing

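Across the alternatives 109 values stayed within 1 SD of the reported value, or within 1.5 times for a count, and 18 moved. The replicate block, the filters and the intensity trend cannot change a log2 difference, so this tally is no measure of stability. For the GmaAffx _s_at probe set of SS, 0.56 still counted as within 1 SD, as PVM array 1 widened that SD. With pseudocounts of 1 and 64, the difference of SS on its Gma probe set was 2.94 and 0.88 and that of GOLS -2.25 and -0.79. Leaving out 1 array gave 1.49 to 2.0 for SS, -1.72 to -1.34 for GOLS, 1.00 to 1.46 for LOC547931, and 0.56 to 2.96 for the GmaAffx _s_at probe set of SS. For the GmaAffx _at probe set no value can be given without PVM array 1, as all arrays left were below background. Probe sets called higher in PVM numbered 0 with the replicate block, 1 and 54 with pseudocounts of 1 and 64, 5 with no filter, 136 with the intensity trend, 0 with PP arrays 1 and 2 averaged, and 0 to 3 without 1 array. Those called lower numbered 3 with a pseudocount of 64 and 13 with the intensity trend. The carbohydrate list had 0 calls in all settings by limma, where 2 to 4 of its probe sets had an unadjusted p under 0.05. The cause of these changes was not tested. Deviations from the layer mean correlated at 0.016, 0.030 and 0.049 for PVM and PP arrays of the same number. For unlike numbers the correlations were -0.042 to 0.010. Values this small cannot show whether the numbers pair the samples. With the replicate block 0 of the 4 member probe sets were called. Values near background limit GOLS in PVM and SS in PP.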
